A study of Mus musculus with 20 samples.

Results

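The kidney of mice given oxaliplatin for 8 weeks was compared with the kidney of mice given vehicle. All 10 kidney libraries of the 20 in the series were used, 5 from oxaliplatin-treated and 5 from vehicle-treated mice, together with all 55486 genes of the kidney count table. The mice were C57BL/6, a common inbred strain, 10 weeks old at the start, and both sexes were used in the study. The kidney labels do not give the sex of each mouse. They received 10 mg/kg oxaliplatin in 5% dextrose, or the 5% dextrose alone, by intraperitoneal injection. Every kidney library is labelled a biological replicate and is referred to here as 1 mouse, numbered 1 to 5 within its group. The numbers do not link mice across the groups. Mice were killed 6 days after the last dose according to the methods for bone marrow, and how the kidneys were taken is not given in the sources used here. The comparison shows what repeated dosing did to kidney RNA, in a study centred on blood formation in bone marrow.

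Oxaliplatin is a platinum drug that forms adducts and crosslinks in DNA. Cells with such damage stabilise the transcription factor p53, which raises a set of genes that halt the cell cycle or start cell death. The kidney clears platinum from the blood, and the proximal tubule, the segment that reabsorbs most of the filtrate and secretes drugs, takes platinum up through organic cation transporters. The kidney also senses oxygen: fibroblast-like cells between the tubules secrete erythropoietin, the hormone that drives red cell production, when oxygen delivery falls. Juxtaglomerular cells release renin, and the proximal tubule activates vitamin D.

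The vehicle libraries held 24393007 to 28304953 counts each (median 26548769), and the oxaliplatin libraries 26314983 to 30925430 (median 27362564). Of the 55486 genes, 37270 had at least 1 count and 19293 had enough counts to be tested. Levels are given as CPM, a gene's counts divided by the library size after TMM scaling in edgeR. Differences are log2 fold changes, oxaliplatin minus vehicle, with their standard errors. A gene is said to rise or fall only where edgeR's two-sided quasi-likelihood test gave a Benjamini-Hochberg adjusted p under 0.05 and the change was beyond 1.5-fold. The tissue was identified by its own markers: Umod, made by the loop of Henle, was at 1795 CPM or more and Lrp2, the proximal tubule endocytic receptor, at 3958 CPM or more in every library. Markers of adrenal cortex and skeletal muscle were low, the 7 adrenal genes summing to 3.04 to 6.81 CPM and the 6 muscle genes to 0.48 to 2.88 CPM. Cyp11b1, Ckm and the pancreatic Prss1 were at 0 to 0.18 CPM. The list of pancreas and liver genes that holds Prss1 summed to 114 to 265 CPM, and its member Ttr was at 29.6 to 181 CPM. Y-linked transcripts were present in all 10 libraries, summing to 77.5 to 110 CPM, and Xist, a transcript of female cells, held 0 to 19 counts per library. All 10 kidneys therefore had the transcript pattern of males.

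Oxaliplatin-treated mice 1 and 5 stood apart from the other 3 in hemoglobin. Their summed hemoglobin transcripts were 44.7 and 43.4 CPM, against 219 to 689 CPM in oxaliplatin-treated mice 2, 3 and 4 and 250 to 417 CPM with vehicle. In 863 of the 2216 genes that changed (38.9%) these 2 were the oxaliplatin-treated mice farthest from vehicle in the direction of the change, and the next most frequent of the 10 possible pairs, mice 4 and 5, accounted for 498 genes (22.5%). When both mice were left out, a setting added after the data were seen, 1520 genes changed, 1026 higher (5.15% of those then tested) and 494 lower (2.48%), and 1369 of the 2216 (61.8%) still changed in the same direction. Where leaving them out ended the call of a gene named below as rising or falling, its value without them stands beside it. With fewer treated mice a change of the same size can have a higher adjusted p, so a lost call need not mean a smaller change. The log2 fold change was nearly the same for Tgfb3 (0.68 with them, 0.65 without) and smaller for Mt1 (0.76 and 0.47).

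Of the 19293 genes tested, 2216 changed (11.5%), of which 1481 rose (7.68%) and 735 fell (3.81%). Counts of list members given below are to be read against these shares. Without the fold threshold, 5679 genes (29.4%) passed the adjusted p. For 3995 genes (20.7% of those tested) the 2 groups did not overlap, and 1587 of these were among the 2216. A rise beyond 2-fold was found in 655 genes and beyond 4-fold in 105, and a fall of these sizes in 286 and 43. The median log2 fold change over all tested genes was 0.02. Scaling by library size alone shifted this median upward by 0.13 and raised the share of changed genes that were higher from 66.8% to 82.7%. On the first principal component of log2 CPM, which held 44.1% of the variance, vehicle-treated mice lay between -46.4 and -21.8 and oxaliplatin-treated mice between 19.6 and 60.2. Of the treated mice, mouse 5 lay at 60.2, mice 1 and 4 at 39.7 and 38.5, and mice 2 and 3 at 20.5 and 19.6. Mouse 1 was thus not set apart from mouse 4 on this component.

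Erythropoietin gave the largest rise. Epo (ENSMUSG00000029711, minus strand, chr5:137483020-137533242 in GRCm38) held 2, 0, 6, 0 and 2 counts in the 5 vehicle-treated mice and 5738, 838, 2886, 1882 and 7309 counts in oxaliplatin-treated mice 1 to 5. These are 206, 28.2, 104, 66.0 and 219 CPM with oxaliplatin and at most 0.26 CPM with vehicle. The groups were separated by more than 2 orders of magnitude, and within the oxaliplatin group mice 1 and 5 were the highest and mouse 2 the lowest. Summed over the 5 mice, 18653 counts stood against 10, a ratio of 1593 per scaled library (95% exact binomial interval 866 to 3322, counting error only). The fitted log2 fold change was 10.53 ± 1.0 (SE, edgeR adjusted p = 0.00019), and it was 9.62 without mice 1 and 5. The hemoglobin transcripts in the same kidneys ran in the opposite order: they were lowest in mice 1 and 5 and highest in mouse 2. Hba-a1, a hemoglobin alpha chain gene, averaged 130 ± 27.1 CPM (SD, n = 5) with vehicle and 125 ± 121 CPM with oxaliplatin. Hemoglobin transcripts come from blood held in the tissue, and their part in the other results was not tested.

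**Figure D1:**
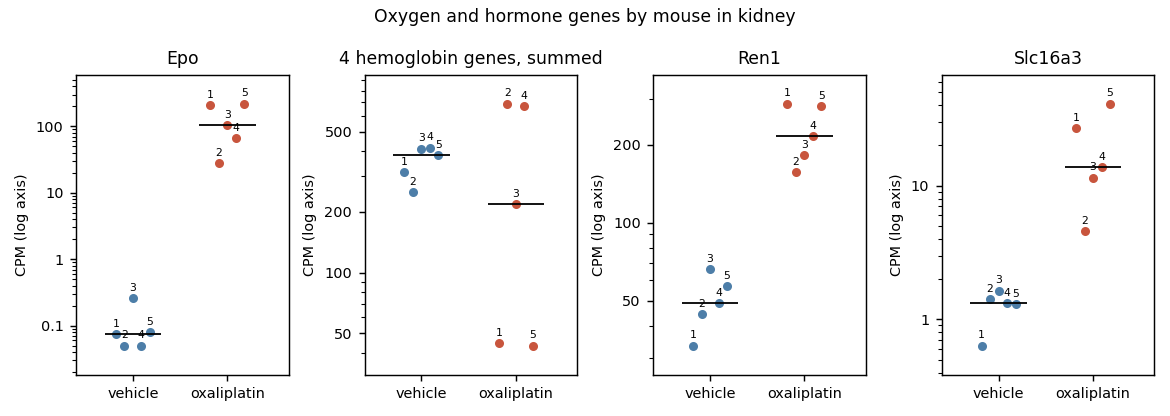
CPM of Epo, the 4 hemoglobin genes summed, Ren1 and Slc16a3 in each kidney, on log axes, with mouse numbers beside the points and a line at the group median. Epo counts of 0 are drawn at 0.05 CPM. Oxaliplatin-treated mice 1 and 5 are the highest for Epo, at 206 and 219 CPM, and the lowest for hemoglobin, at 44.7 and 43.4 CPM.

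Other oxygen-regulated genes moved far less than Epo. Of the 34 tested genes of oxygen sensing and hypoxia response beside Epo, 9 rose and none fell, with a median log2 fold change of 0.34 against 0.02 over all genes, and 4 rose without mice 1 and 5. Ankrd37, a HIF target of unsettled function, was at 1.6, 0.91, 1.99, 0.40 and 2.55 CPM with vehicle and 13, 3.13, 12.1, 5.82 and 19.0 CPM with oxaliplatin, a log2 difference of 2.83 ± 0.60 (edgeR adjusted p = 0.0075). Egln3, an oxygen-dependent prolyl hydroxylase that marks HIF for destruction, rose by 1.26 ± 0.30 on the log2 scale, from 19.5 ± 3.35 to 46.6 ± 20.2 CPM (n = 5). Pdk1, a kinase that inhibits pyruvate dehydrogenase, was at 141 and 187 CPM in mice 1 and 5, at 72.0 to 86.3 CPM in the other 3 and at 45.0 to 58.6 CPM with vehicle, and its log2 fold change of 0.58 without mice 1 and 5 was just under the fold threshold. The glycolytic genes Pfkfb3, Eno1 and Aldoa and the glucose transporter Slc2a1 rose by between 0.72 and 1.05 on the log2 scale. Without mice 1 and 5 Pfkfb3 (0.68) and Eno1 (0.67) still rose, whereas Aldoa (0.42) and Slc2a1 (0.45) were below the fold threshold. The HIF subunits themselves did not pass the test, with log2 fold changes of 0.06 for Hif1a and 0.09 for Epas1, and Vegfa, an endothelial growth factor, stayed below the fold threshold at 0.47.

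The start-site windows of these genes were searched for the core motif bound by HIF, ACGTG or GCGTG on either strand, in 300 bases of RefSeq sequence (GRCm38.p6) from 250 before to 50 after each start. All 10 genes that rose had a match, as had 16 of the 19 list members with a window that were not called. Since 43.8% of all 32851 windows hold the motif, and 46.7% of genes have it in at least 1 window, a match is common. Windows of Epo and Egln3 with the motif in capitals are shown because Epo rose most and Egln3 is itself an oxygen sensor. The RefSeq start used for Epo lies inside the gene interval given above. Sequence outside the start-site windows was not searched, here or for Cdkn1a below. Both Epo matches before the start are on the opposite strand. The letters ACGTG also form part of the E-box CACGTG.
Epo, chr5:137486037-137486066, minus strand: ggcgacccctCACGCacacacagcttcacc
Epo, chr5:137486001-137486035, minus strand: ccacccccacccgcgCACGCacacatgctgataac
Egln3, chr12:54204084-54204118, minus strand: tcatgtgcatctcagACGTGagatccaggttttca

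Renin and the angiotensin-converting enzyme moved in opposite directions. Ren1, the protease that starts the angiotensin cascade, was at 33.5, 44.2, 66.0, 48.8 and 56.9 CPM with vehicle and 288, 156, 182, 215 and 282 CPM with oxaliplatin. The groups did not overlap, and the log2 difference was 2.17 ± 0.23 (edgeR adjusted p = 0.00019). Ace, which cleaves angiotensin I and is abundant on the proximal tubule brush border, fell from 500 ± 53.2 to 151 ± 37.0 CPM, 3.31-fold lower. Cyp27b1, the enzyme that activates vitamin D, rose 2.00-fold, but its groups overlapped. Without mice 1 and 5 its edgeR adjusted p was 0.10 at a log2 fold change of 0.94, against 1.00 with them. Pth1r, the parathyroid hormone receptor, fell 1.79-fold. Slc34a2, a phosphate transporter, rose 1.76-fold, and Kl, the FGF23 coreceptor klotho, did not pass the test (log2 fold change -0.30). Thpo, the platelet growth factor, was at 9.46 to 12.0 CPM with vehicle and 6.90 to 9.20 CPM with oxaliplatin. These groups did not overlap and its adjusted p was 0.0086, but the change of -0.44 on the log2 scale was below the fold threshold. Of 15 hormone and renin-angiotensin genes 3 rose and 1 fell (2 and 1 without mice 1 and 5), and of 19 phosphate, vitamin D and calcium genes 2 rose and 1 fell (1 and 1 without them).

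Of 37 genes tested in the p53 target list, which also holds Trp53 itself, 17 rose and none fell. The median log2 fold change was 0.58. The count was also 17 without mice 1 and 5, when Mdm2 (0.62) joined and Bbc3 (0.56, edgeR adjusted p = 0.052) dropped out. The other 20 were not called, and 2 of them, Perp (-0.38) and Rrm2b (-0.33), were lower at an adjusted p under 0.05 but below the fold threshold. Cdkn1a, which encodes the cell cycle inhibitor p21 (ENSMUSG00000023067, plus strand, chr17:29090976-29100727), was at 2.39, 1.71, 3.37, 2.94 and 4.78 CPM with vehicle. With oxaliplatin it was at 149, 108, 92.6, 79.3 and 147 CPM. The lowest treated mouse lay far above the highest vehicle mouse, and the log2 difference was 5.25 ± 0.31, 38.1-fold (edgeR adjusted p = 7.2e-06). Eda2r, a receptor of the TNF receptor family, rose 31.5-fold, from 0.29 ± 0.11 to 9.40 ± 1.75 CPM. Psrc1, a spindle protein, rose 15.9-fold, and Phlda3, an inhibitor of AKT signalling, rose 8.15-fold from 5.41 ± 1.12 to 44.2 ± 8.74 CPM. Ephx1, the microsomal epoxide hydrolase, was at 45.9 to 50.6 CPM in every vehicle mouse and 182 to 249 CPM in every treated mouse. Ccng1, Plk2, Gdf15, Zmat3, Btg2, Tnfrsf10b, Aen, Gtse1 and Trp53inp1 rose by between 0.96 and 2.61 on the log2 scale. Mdm2, the ubiquitin ligase that limits p53, had a log2 fold change of 0.58 at an adjusted p of 2.3e-05, just under the fold threshold. Trp53 itself did not pass the test (0.11), and neither did the damage-response genes Fas, Pmaip1 and Sesn2.

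The Cdkn1a start-site window held 2 p53 half-sites in tandem with a spacer of 12 bases, shown in capitals because this pattern was found in 24 of all 32851 windows (0.0731%), searched on the printed strand, which is enough for a motif that reads alike on both, with spacers of up to 13 bases. Its first base lies 73 bases before the start.
Cdkn1a, chr17:29090892-29090951, plus strand: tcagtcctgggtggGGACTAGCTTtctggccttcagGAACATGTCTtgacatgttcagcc
Of the 14 risen p53 targets with a window, 1 had the tandem pattern and 5 had at least 1 half-site. Among 14 members with a window that were not called, 7 had a half-site. At least 1 half-site occurs in 8.36% of all windows and in those of 9.55% of genes.

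Some proliferation genes rose beside Cdkn1a. Of 30 tested genes of S phase and mitosis, 16 rose and none fell (median 0.82), and 15 rose and 1 fell without mice 1 and 5. Mki67, a marker of cycling cells, was at 3.70, 3.58, 2.85, 2.21 and 3.77 CPM with vehicle and 5.71, 12.9, 8.59, 12.2 and 10.7 CPM with oxaliplatin. Here mouse 1 was the lowest of the treated mice, unlike for Cdkn1a, where it was the highest. Top2a, a DNA topoisomerase, rose 3.35-fold from 1.73 ± 0.38 to 5.81 ± 1.28 CPM, Tpx2, a spindle factor, rose 2.84-fold, and Aurkb, a mitotic kinase, rose 2.96-fold from 0.44 ± 0.28 CPM with overlapping groups. Of the other cyclin-dependent kinase inhibitors tested, none joined Cdkn1a, with log2 fold changes of 0.12 for Cdkn1b and 0.06 for Cdkn1c. Of 34 genes of crosslink and excision repair 3 rose, a share near the 7.68% of all tested genes that rose. They included Brca1 (1.33), which acts in homologous recombination, and Fancd2 (1.09), of the Fanconi pathway. Both were low, averaging 1.98 and 1.18 CPM with oxaliplatin. The excision factor Xpa did not pass the test, at 12.9 ± 1.79 and 12.2 ± 0.67 CPM. In the BCL2 family, the death promoters Bax (1.57-fold) and Bbc3 (1.87-fold) rose among 14 tested, and Bbc3 had an adjusted p of 0.052 without mice 1 and 5. Bcl2 itself was at 15.4 ± 1.89 and 15.5 ± 1.70 CPM.

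**Figure D2:**
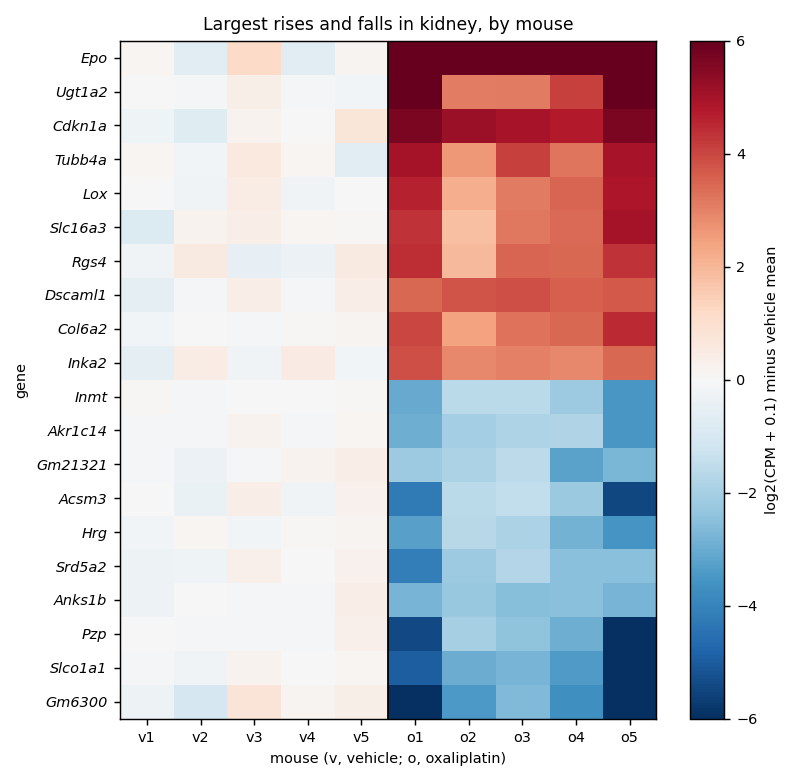
The 10 largest rises and 10 largest falls among changed genes whose groups do not overlap and whose mean log2 CPM is at least 1, shown as log2(CPM + 0.1) minus the vehicle mean for each mouse, with the colour scale ending at -6 and 6. Ugt1a2, Tubb4a and Slc16a3 are darkest in oxaliplatin-treated mice 1 and 5, whereas Dscaml1 is nearly even over the 5 treated mice, at 15.0 to 20.3 CPM.

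The 10 largest rises differed in how evenly the treated mice shared them. Dscaml1, a cell adhesion gene, was at 0.82 to 1.77 CPM with vehicle and at 15.0 to 20.3 CPM in all 5 treated mice. Inka2, which encodes a kinase inhibitor, was at 6.63 to 13.4 CPM in treated mice and at most 1.17 CPM with vehicle. Ugt1a2, a UDP-glucuronosyltransferase that conjugates bilirubin and drugs, was at 127 and 181 CPM in mice 1 and 5 but at 6.60, 6.65 and 13.3 CPM in mice 2, 3 and 4, against 0.61 to 0.91 CPM with vehicle. Its log2 fold change was 6.59 ± 1.4, and 3.67 without mice 1 and 5. Members of the Ugt1a cluster share their last exons, so this value rests on reads unique to Ugt1a2 and is uncertain as a measure of the gene. Slc16a3, a lactate exporter, showed the same division at 26.7 and 41.0 CPM against 4.54 to 13.7 CPM, as did Tubb4a, a tubulin gene, at 25.1 and 24.3 CPM against 4.68 to 13.4 CPM. Rgs4, a regulator of G protein signalling, rose 14.2-fold.

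The 10 largest falls were in genes of varied function. Slco1a1, an organic anion transporter of the proximal tubule that is higher in males (ENSMUSG00000041698, minus strand, chr6:141907282-141946962), was at 233, 218, 284, 247 and 268 CPM with vehicle and 8.07, 31.2, 36.5, 23.2 and 2.28 CPM with oxaliplatin. It was lowest in mice 1 and 5, and its log2 fold change was -3.63 ± 0.64 (edgeR adjusted p = 0.0035). Pzp, a protease inhibitor, fell 8.56-fold from 108 ± 13.6 to 12.7 ± 11.2 CPM, and Inmt, an indole N-methyltransferase, fell 4.63-fold from 1296 ± 77.4 to 280 ± 142 CPM. Srd5a2, which converts testosterone to dihydrotestosterone, fell 5.80-fold, Akr1c14, a hydroxysteroid dehydrogenase, fell 4.91-fold, and Hrg, a plasma glycoprotein gene, fell 5.77-fold. Anks1b fell 6.59-fold and was even over the treated mice at 0.72 to 1.04 CPM. Gm6300 and Gm21321 are annotated as pseudogenes and fell 17.4-fold and 5.02-fold, and reads from near-identical copies make both uncertain.

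Of 48 proximal tubule genes tested, 17 fell and 1 rose, with a median of -0.33, and 15 fell without mice 1 and 5. The other 30 were not called, and 16 of them had an adjusted p under 0.05 with a change below the fold threshold, 8 higher, such as the endocytic receptor Cubn (0.32), and 8 lower, such as the transcription factor Hnf4a (-0.36). The 1 that rose was Slc7a8 (0.61), an amino acid transporter. Beside Slco1a1, the genes that fell included Acsm3 (-2.40), a medium-chain acyl-CoA synthetase, and Kap (-1.90), the androgen-regulated kidney protein. The organic anion transporters Slc22a7 (-1.61), Slc22a12 (-1.10) and Slc22a6 (-1.0) fell, as did the phosphate and urate transporters Slc17a3 (-1.32) and Slc17a1 (-0.92). Kap was the most abundant of them, at 7258 to 8998 CPM with vehicle, at 3509, 3500 and 2897 CPM in treated mice 2, 3 and 4, and at 831 and 362 CPM in mice 1 and 5. Though its groups do not overlap, Kap lost its call (edgeR adjusted p = 0.044) in 7 of the 10 fits that left out 1 mouse, with an adjusted p of at most 0.085, and Acsm3 lost it in 6, with at most 0.076. Lrp2 did not pass the test, at 4699 ± 809 and 4565 ± 405 CPM, and the water channel Aqp1 (0.09) and the glucose transporter Slc5a2 (0.23) did not pass it either. Summed over the list, transcripts went from a median of 64357 CPM (61996 to 68894) with vehicle to 45201 CPM (39384 to 51095) with oxaliplatin, without overlap. In a bulk sample, fewer cells of a type and less RNA per cell cannot be told apart.

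In the other nephron segments the calls were rises, against a background of 7.68% of tested genes that rose. The share was below this in the loop of Henle list and above it in both collecting duct lists. In the loop of Henle and distal tubule 1 of 27 genes rose, the monocarboxylate transporter Slc16a7 (0.70), and Umod was at 1795 to 2416 CPM with vehicle and 2374 to 2537 CPM with oxaliplatin. In collecting duct principal cells 2 of 16 rose, Stc1 (1.43), which encodes stanniocalcin, and the urea transporter Slc14a2 (0.89). In intercalated cells 4 of 18 rose, Slc26a7 (0.92), Aqp6 (0.75), Slc4a1 (0.69) and Dmrt2 (0.63). Slc4a1, the anion exchanger of both intercalated cells and red cells, was highest in mouse 2, at 106 CPM, which also had the most hemoglobin, and lost its call without this mouse, as Dmrt2 did without vehicle-treated mouse 2, 3 or 5. The list medians were 0.17, 0.27 and 0.20, and no gene of these 3 lists fell. Podocytes, the filter cells of the glomerulus, gave 9 rises of 22 and no fall (median 0.35, and 7 rises without mice 1 and 5). Kirrel, a slit diaphragm protein gene, was at 14.7, 16.7, 18.6, 15.5 and 16.7 CPM with vehicle and 35.2, 24.2, 28.7, 35.1 and 39.7 CPM with oxaliplatin. The groups did not overlap, and the rise was 1.98-fold (edgeR adjusted p = 1.9e-05). Wt1, the podocyte transcription factor, rose 1.77-fold, from 10.3 to 12.4 CPM with vehicle to 16.3 to 24.5 CPM with oxaliplatin, and Nphs1, which encodes nephrin, rose 1.52-fold. Without mice 1 and 5 the log2 fold change of Nphs1 was 0.58, just under the fold threshold, and it was also under it without vehicle-treated mouse 3 or oxaliplatin-treated mouse 2. CPM here are relative to the TMM-scaled size of each library rather than plain shares of it. The abundant proximal tubule transcripts fell in the same mice, and the part of that fall in these rises was not tested.

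**Figure D3:**
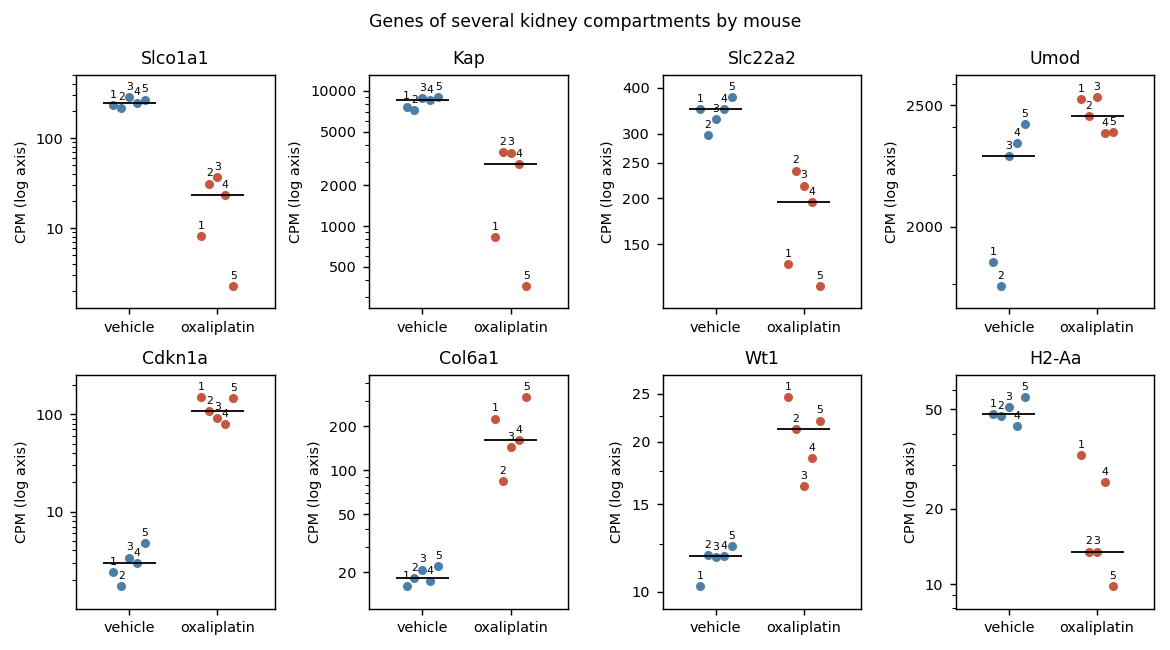
CPM of 8 genes in each kidney on log axes, with mouse numbers beside the points and a line at the group median. Slco1a1, Kap and Slc22a2 are lower in every oxaliplatin-treated mouse and lowest in mice 1 and 5, Cdkn1a, Col6a1 and Wt1 are higher in every treated mouse, H2-Aa is lower in every treated mouse, and the Umod groups overlap.

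Tubular injury genes gave a mixed picture. Of 22 tested, 7 rose and 1 fell (median 0.62), and 6 rose and 1 fell without mice 1 and 5. Lcn2, the iron-binding injury protein NGAL, was at 1.34 to 1.86 CPM with vehicle and at 9.37, 3.43, 3.34, 8.21 and 7.11 CPM with oxaliplatin, a 4.17-fold rise. Spp1, which encodes osteopontin, rose 1.90-fold from 294 ± 18.8 to 559 ± 56.9 CPM, and Fgg, a fibrinogen chain, rose 2.40-fold. Vim and Cd44, expressed by dedifferentiated tubule cells, rose by 0.77 and 0.72 on the log2 scale. Havcr1, the injury marker KIM-1, was at 0.94 ± 0.30 CPM with vehicle and 1.01 ± 0.39 CPM with oxaliplatin (log2 difference 0.11 ± 0.33, edgeR adjusted p = 0.83), and Sox9 (0.60), Vcam1 (0.05) and Hmox1 (1.09) did not pass the test. Il34, a growth factor for macrophages made by tubule cells, fell 2.65-fold from 23.5 ± 4.38 to 8.87 ± 0.81 CPM.

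Matrix genes rose most often among the lists with 20 or more tested genes. Of 29 tested collagen, matrix and fibroblast genes, 21 rose and none fell, with a median of 1.01 and 23 rises without mice 1 and 5. The neighbouring genes Col6a1 and Col6a2, which encode chains of the microfibrillar collagen VI (minus strand, chr10:76708792-76726168 and chr10:76595762-76623630), rose most among collagens. Col6a1 was at 16.1, 18.3, 21.0, 17.4 and 22.2 CPM with vehicle and 226, 84.8, 145, 161 and 316 CPM with oxaliplatin, 9.82-fold (edgeR adjusted p = 0.00025). Col6a2 rose 12.9-fold from 10.2 ± 0.85 to 132 ± 66.4 CPM, whereas Col6a3, the gene of the third chain, rose by 0.73 on the log2 scale. Col1a1, a fibrillar collagen gene, rose evenly. It was at 18.9 to 26.0 CPM with vehicle and 62.5, 83.0, 69.2, 89.9 and 87.1 CPM with oxaliplatin, 3.56-fold (edgeR adjusted p = 2.2e-08), and here mouse 1 was the lowest of the treated mice. Lox, the enzyme that crosslinks collagen, rose 16.7-fold and was highest in mice 1 and 5, at 29.1 and 34.2 CPM against 5.22 to 13 CPM in the other 3. Postn, a matricellular protein gene, rose 3.80-fold, and Acta2, smooth muscle actin of contractile cells, rose by 1.02 on the log2 scale. Of 19 TGF-beta signalling genes 5 rose and none fell, and 3 rose without mice 1 and 5. The ligands Tgfb2 (2.34-fold) and Tgfb3 (1.6-fold) rose, while Tgfb1 did not pass the test (log2 fold change 0.17). Without these mice Tgfb3 had an edgeR adjusted p of 0.10 at a log2 fold change of 0.65, against 0.68 with them.

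Some endothelial and fat cell markers rose. Of 21 endothelial genes 7 rose and none fell (median 0.51), but 2 rose without mice 1 and 5. Cdh5, the endothelial cadherin, rose from 27.0 ± 1.30 to 53.5 ± 9.53 CPM, 1.99-fold, and Igfbp5, which binds insulin-like growth factors, rose 2.46-fold. Pecam1 rose 1.56-fold (edgeR adjusted p = 0.00026), and its log2 fold change of 0.51 without these mice was below the fold threshold. Of 6 adipocyte markers tested, 4 rose, and 3 without mice 1 and 5. Their sum over all 7 listed was 38.8 to 69.8 CPM with vehicle and 83.4 to 203 CPM with oxaliplatin, Lep held 2 to 26 counts in any library, and the part of adhering fat in other results was not tested. Adipoq, which encodes adiponectin, was at 1.57, 0.61, 0.09, 0.36 and 0.16 CPM with vehicle and 6.28, 2.56, 1.58, 3.19 and 3.96 CPM with oxaliplatin. Cfd, the complement protease adipsin, which fat cells secrete, was at 0.73 to 7.24 CPM with vehicle and 84.9, 12.9, 17.4, 21.1 and 48.1 CPM with oxaliplatin, and its adjusted p was 0.056 without mice 1 and 5.

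**Figure D4:**
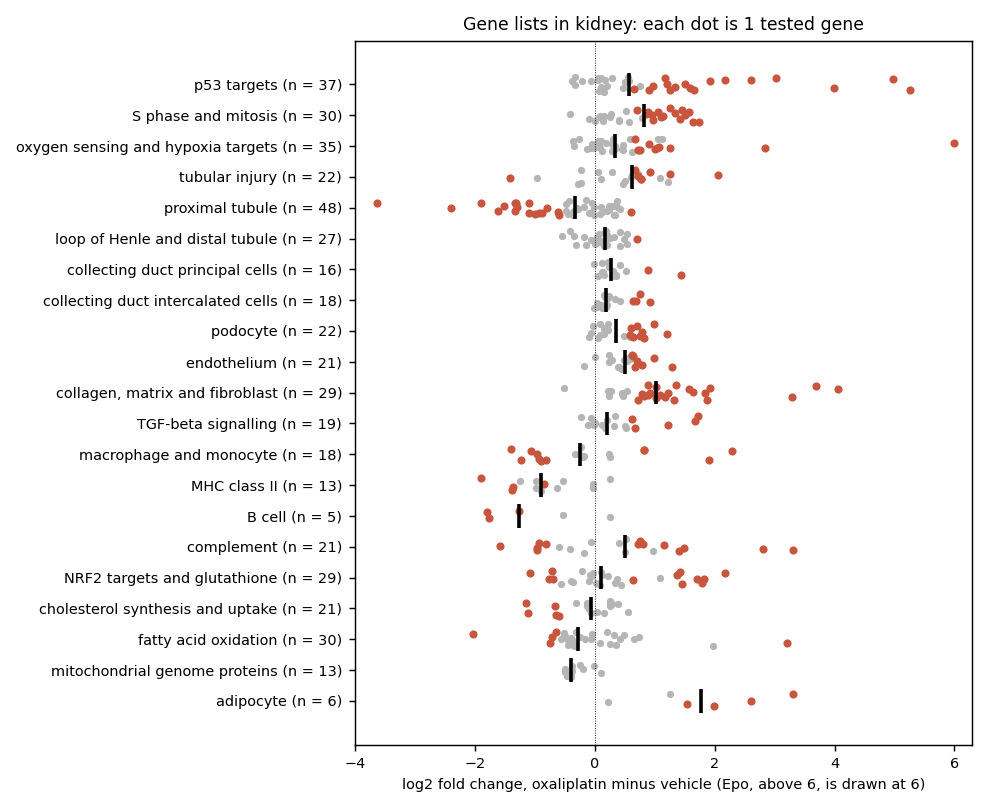
Log2 fold change of each tested gene in 21 lists, with red dots for genes that rose or fell and black lines at the list medians. Collagen and matrix genes, p53 targets and S phase genes have no red dot below 0, the proximal tubule list has 17 below 0 and 1 above, and MHC class II and B cell genes have red dots only below 0.

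Some genes of antigen-presenting cells and B cells fell. Of 13 tested genes of MHC class II and antigen-presenting cells 4 fell and none rose, with a median of -0.90, and 7 fell without mice 1 and 5. Of 5 B cell genes 3 fell (median -1.27), and 1 fell without these mice. H2-Aa, a class II alpha chain, was at 47.9, 47.1, 50.9, 42.8 and 55.8 CPM with vehicle and 32.8, 13.5, 13.5, 25.6 and 9.81 CPM with oxaliplatin, 2.57-fold lower (edgeR adjusted p = 0.013). H2-Eb1 fell 2.60-fold and H2-Ob, expressed in B cells, fell 3.73-fold, whereas Cd74 (-0.98) and H2-Ab1 (-0.90) did not pass the test except without mice 1 and 5 (-1.11 and -1.18). Ighm, the IgM heavy chain, fell evenly from 4.30 ± 0.30 to 1.79 ± 0.24 CPM. Igkc, the kappa light chain, fell 3.48-fold. Without mice 1 and 5 its edgeR adjusted p was 0.067 at a log2 fold change of -1.69, against -1.80 with them. Of 6 T and NK cell genes only Trac fell, 2.02-fold, with overlapping groups, and 12 of the 18 listed were too low to test. Trac had an edgeR adjusted p of 0.078 without mice 1 and 5 (up to 0.085 in 3 fits without 1 mouse). Its log2 fold change was -0.98 without mice 1 and 5, against -1.01 with them.

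Macrophage genes divided in both directions, 7 falling and 4 rising among 18, or 6 and 2 without mice 1 and 5. Adgre1, which encodes F4/80, fell 2.10-fold from 3.42 ± 0.89 to 1.63 ± 0.20 CPM. C1qa, C1qb and C1qc, the complement subunits that macrophages make, fell by 0.93, 0.81 and 0.96 on the log2 scale, and Csf1r, the receptor for Il34, fell by 0.89. Lyve1 (2.28), Trem2 (1.91), Mrc1 (0.83) and Lyz2 (0.82) rose. Lyve1, which also marks lymphatic vessels, stayed low at 0.54 to 1.22 CPM with oxaliplatin, and Trem2 and Mrc1 lost their calls without mice 1 and 5 (edgeR adjusted p = 0.11 and 0.072). Complement genes also split, with 8 risen and 5 fallen of 21, or 7 and 5 without mice 1 and 5. C3, the central component, was at 8.29 to 13 CPM with vehicle and 122, 39.1, 61.5, 60.9 and 96.6 CPM with oxaliplatin, 7.01-fold, and its regulator Serping1 rose 2.80-fold. C4a, which shares near-identical sequence with C4b, fell 2.99-fold and is uncertain for that reason. Of 11 chemokine genes tested 1 rose and 2 fell, and no call was made in this list without mice 1 and 5. Ccl2, the monocyte attractant, was too low to test at 0.08 to 0.57 CPM. The neutrophil granule gene S100a8 was nearly absent, at 0 to 0.49 CPM. The 13 listed neutrophil genes were low but summed to 2.35 to 3.42 CPM with vehicle and 3.84 to 6.46 CPM with oxaliplatin, without overlap. Of the 2 tested only Csf3r rose, 1.54-fold. Without mice 1 and 5 its edgeR adjusted p was 0.074 at a log2 fold change of 0.63, against 0.62 with them. Of 30 interferon-stimulated genes 2 rose, Ifi27l2a by 0.67 and Ifit2 by 0.60 on the log2 scale, neither without mice 1 and 5 (edgeR adjusted p = 0.067 for the first, log2 fold change 0.45 for the second), and Isg15 did not pass the test.

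Of 21 genes of platinum transport and metal binding 4 rose and 2 fell, or 2 and 2 without mice 1 and 5. Slc22a2, the basolateral cation transporter OCT2, which takes up oxaliplatin, was at 349, 297, 329, 349 and 377 CPM with vehicle and 132, 238, 217, 195 and 116 CPM with oxaliplatin, 1.90-fold lower (edgeR adjusted p = 0.0052). The efflux partner Slc47a1, which encodes MATE1, fell by 0.73 on the log2 scale. The drug efflux pumps Abcb1b (3.51-fold), Abcb1a (0.68 on the log2 scale) and Abcc4 (1.97-fold) rose, the last evenly from 73.6 ± 6.85 to 145 ± 12.1 CPM, and Abcb1a had an adjusted p of 0.080 without mice 1 and 5. Mt1, a metallothionein, rose 1.69-fold with overlapping groups and had an adjusted p of 0.15 without mice 1 and 5. The list of NRF2 targets and glutathione genes gave 8 rises and 4 falls of 29, or 9 and 2 without mice 1 and 5. Those that rose were the epoxide hydrolase Ephx1, also a p53 target, the exporter Abcc3 (3.55-fold), the carbonyl reductases Cbr1 and Cbr3, and the glutathione transferases Gsta1 (3.46-fold), Gsta2 (3.26-fold), Gsta3 and Gsta4. Gsta1 and Gsta2 are close paralogs and reads may be divided unevenly between them. Nqo1, a standard NRF2 target, had a log2 fold change of 0.34, below the fold threshold, and the glutathione synthesis genes Gclm (-0.76) and Gss (-0.72) fell, and the log2 fold change of Gss was -0.55, below the fold threshold, without mice 1 and 5.

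Of 12 genes with a known sex bias in kidney or on the Y chromosome, 3 rose and 3 fell (median -0.04), and 2 and 3 without mice 1 and 5. The male-biased Slco1a1 and Kap and Cyp2j13 (-1.40) fell. The female-biased Prlr, the prolactin receptor, was at 2.42 to 11.6 CPM with vehicle and 55.0, 25.6, 28.5, 41.1 and 67.2 CPM with oxaliplatin, 5.50-fold (edgeR adjusted p = 0.0032). Slc7a12, an amino acid transporter, rose 6.59-fold, and Cyp4a14, a fatty acid hydroxylase, rose 9.29-fold but had an adjusted p of 0.078 without mice 1 and 5. Cyp4a12a, the androgen-dependent hydroxylase, fell 4.07-fold from 156 ± 27.4 to 38.4 ± 24.2 CPM. With the Y-linked transcripts, present in every library, as a covariate, the number of genes that changed was 2261. Because no library lacked these transcripts, the covariate holds no contrast of the sexes and cannot adjust for sex.

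Of the genes called in kidney, 1103 of 2216 also differed from bone marrow in their response by edgeR's tissue by treatment interaction. Among all 24321 genes tested for it, 5759 (23.7%) differed. The called genes were chosen for a kidney response that also enters the interaction. These shares therefore cannot show whether the kidney calls were more specific to their tissue than other genes. The kidney and marrow responses of 786 genes were both called, 35.5% of the kidney calls and 15.1% of the 5221 marrow calls, with the same sign in 487. For Cdkn1a the response was 5.25 in kidney and 4.37 in marrow and the interaction did not pass (0.82 ± 0.32, adjusted p = 0.056). Eda2r rose by 4.98 and 4.99 (interaction -0.08 ± 0.47). Psrc1 rose by 4.00 in kidney and had 0.41 in marrow (interaction 3.52 ± 0.35, adjusted p = 1.4e-07). Epo and Slco1a1 had too few marrow counts to be tested there, and their interaction estimates had standard errors of 8.7 and 5.2.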

How the data were processed

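RNA was measured in kidney from 5 vehicle-treated and 5 oxaliplatin-treated mice, and in bone marrow for the tissue comparison. The authors deposited raw counts per gene, from STAR alignment to Ensembl release 101 and uniquely aligned, unambiguous reads counted in Partek Flow; the sample records also list featureCounts and Salmon, and strand use is not given in the sources used here. The methods describe SMARTer cDNA, the sample records ribosomal RNA removal with random hexamers. The 55774 lines were reduced by 287 identical repeats and 1 line lacking a value.

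Genes were filtered with filterByExpr (minimum count 10), scaled by TMM and tested with edgeR 4.0.16 (robust quasi-likelihood; R 4.3.3, limma 3.58.1), with treatment as the only term, and DESeq2 1.42.0 as an alternative. Log2 CPM used a prior count of 2, and 3 counts, taken as the floor, correspond to 0.090 to 0.13 CPM, for counting error only. Positions come from GENCODE mouse release M21 (GRCm38), which covers 55227 identifiers. Named genes are the 10 largest rises and falls (mean log2 CPM at least 1, no overlap), the first gene and up to 4 largest called members of each of 40 lists, and Epo and Thpo; genes given only as a log2 fold change within a list are further members. The members and lists were chosen with earlier results of these data known. The closest 2 libraries of a group differed by more than sampling noise (chi-square per degree of freedom 6.83 or more). Simulated kidney counts for 19392 genes recovered 100% of 100 genes changed 2-fold and of 100 changed 4-fold, with 5 false calls; the interaction recovered 93% and 100%, also with 5 among 23396. The simulation gave all genes the same dispersion, changed only genes with higher counts and applied the same fold in every oxaliplatin-treated kidney library. Real treated mice differed more in genes such as Epo and Ugt1a2, so recovery of variable or low genes was not measured. Alternatives were other scalings, filters, thresholds, a replicate block, a Y-linked covariate, all 20 libraries in 1 fit and each mouse left out. Promoter windows are from RefSeq. Some single genes of the lists are not reported here. Plots used matplotlib 3.10.9 in Python 3.11.15.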

Additional observations from a re-analysis of the deposited data

Results flagged for a closer look

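Listed here are genes in which 1 mouse lay far from the other 4 of its group, which chance alone gives in about 1 group in 20 (18 of 288 groups here), and genes among the 20 largest changes whose kidney response differed from that in bone marrow by edgeR's interaction test.

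Mouse 2 of the oxaliplatin group was far above its group for the immediate early genes Fos, at 17.7 CPM against 1.68 to 6.24 CPM, and Nr4a1, at 52.5 CPM against 5.4 to 18.3 CPM, and far below it for the chemokine Ccl6, at 1.38 CPM against 2.46 to 2.84 CPM. Mouse 4 of this group was high for the podocyte phospholipase Plce1, at 27.7 CPM against 13.8 to 14.5 CPM, for Tgfb2, at 4.84 CPM against 2.15 to 2.67 CPM, and for Jchain, which joins secreted antibodies, at 1.75 CPM against 0.42 to 0.75 CPM. Mouse 1 was high for Bcl2 (18.4 CPM) and Fgg (11.6 CPM). Among vehicle-treated mice, mouse 1 was low for Wt1 (10.3 CPM) and the dendritic cell integrin Itgax (1.72 CPM) and high for Ltbp2 (0.82 CPM) and Junb (38.6 CPM). Mouse 2 was high for Per1 (130 CPM) and Nr4a1 (6.02 CPM), mouse 3 was high for Ugt1a2 (0.91 CPM) and low for Plce1 (8.60 CPM), and mouse 5 was high for Pzp (133 CPM) and Lrp2 (6127 CPM).

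The kidney response exceeded that of marrow, in log2 units, by 6.96 for Ugt1a2, 4.98 for Dscaml1, 4.04 for Tubb4a, 3.47 for Slc16a3, 2.56 for Rgs4, 2.28 for Col6a2, 1.79 for Lox and 1.64 for Inka2. It was below that of marrow for Pzp (-5.04), Acsm3 (-3.24), Inmt (-2.98), Anks1b (-2.66) and Akr1c14 (-1.65). Adjusted p-values of these edgeR tests ran from 3.3e-06 for Anks1b to 0.045 for Pzp. Lox, Rgs4, Col6a2 and Inka2 also rose in marrow, by 2.20, 1.20, 1.33 and 1.67, whereas Dscaml1 and Pzp had too few marrow counts for a test there.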

How the results depend on the processing

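Of the 2216 changed genes, 66.8% were higher. The count stayed within 1.5 times of this under DESeq2 (2391), other scalings, filters and a Y-linked covariate, and moved to 454 (64.1% higher) when tested against 1.5-fold and to 941 (69.6% higher) with a 2-fold threshold. The share that were higher was 82.7% with library size alone and 64.4% with all 20 libraries in 1 fit. Without 1 mouse the count ran from 1761 (oxaliplatin-treated mouse 5 left out) to 2424 and the share from 65.2% to 69.0%. The interaction count of 5759 became 3529 with a 2-fold threshold and ran from 5143 to 6471 without 1 mouse. With the replicate number as a block 2017 genes changed in kidney. The interaction count was 5350 when kidney and marrow of the same treatment and number formed a block. The labels do not say whether such a kidney and marrow come from 1 mouse, and the main interaction test used no block. The deviations of these kidneys and marrows correlated at -0.094 to 0.21. The numbers do not pair vehicle-treated with oxaliplatin-treated mice: same-numbered kidneys had deviations correlated at -0.15 to 0.08, and 1 of 5 correlated best with its own number. Log2 fold changes near 0 reversed: with library size alone Xpa (0.051), Lrp2 (0.097) and Hba-a1 (0.083), and without oxaliplatin-treated mice 1 and 5, a setting added after the data were seen, Bcl2 (-0.038), Havcr1 (-0.012), Ppara (-0.027) and Hba-a1 (0.61). Without 1 mouse they ran from -0.053 to 0.069 for Bcl2, -0.052 to 0.30 for Havcr1, -0.077 to 0.072 for Lrp2 and -0.49 to 0.24 for Hba-a1. Mice 1 and 5 held the least hemoglobin transcripts of the treated mice, so leaving them out raises Hba-a1 by construction. The cause of the other reversals was not tested. Of 150 named genes tested, 26 lost a call in at least 1 fit without 1 mouse, most often Per1 (8 of 10 fits), Atf5, Kap and Mt1 (7), and Acsm3, Ccl6, Cyp27b1 and Junb (6), and 32 lost it without oxaliplatin-treated mice 1 and 5. Depth limits genes near the floor, such as the T cell and neutrophil markers.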

Other observations

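Lipid genes shifted in part. Of 21 genes of cholesterol synthesis and uptake 5 fell and none rose, or 2 and 1 without oxaliplatin-treated mice 1 and 5. Cyp51, a lanosterol demethylase, fell 2.22-fold from 189 ± 16.7 to 85.2 ± 19.5 CPM (n = 5, edgeR adjusted p = 9.8e-05), Idi1, an isoprenoid isomerase, fell 2.17-fold, and Hmgcs1, which makes HMG-CoA, fell 1.58-fold. Without these mice the log2 fold change of Hmgcs1 was -0.52, below the fold threshold. Of 30 fatty acid oxidation genes 4 fell and 1 rose (5 and none without these mice). Acads, a short-chain acyl-CoA dehydrogenase, fell 1.67-fold from 308 ± 23.7 to 184 ± 33.3 CPM. The 13 protein genes of the mitochondrial genome held no call, since no change reached 1.5-fold, but 9 were lower at an adjusted p under 0.05 by edgeR, with a median log2 fold change of -0.39 over the 13. Their sum went from 35909 to 41994 CPM with vehicle to between 30147 and 39216 CPM with oxaliplatin, with overlap. Of 19 iron and heme genes 4 rose and 1 fell, or 4 and none without these mice, when Hmox1 (1.49) passed and Trf (0.54) was below the fold threshold. Hp, the hemoglobin-binding haptoglobin, was at 0.49 to 1.12 CPM with vehicle and 10.9, 2.12, 2.70, 2.95 and 6.66 CPM with oxaliplatin, Cp, the ferroxidase ceruloplasmin, rose 2.78-fold, and the transferrin gene Trf rose 1.63-fold, while the receptor Tfrc did not pass the test.

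Circadian and immediate early genes changed in few members. Of 20 clock genes 3 rose and 2 fell, or 2 and 2 without oxaliplatin-treated mice 1 and 5. Nr1d1, a clock repressor, was at 23.7 to 92.6 CPM with vehicle and 105 to 158 CPM with oxaliplatin. Its edgeR adjusted p was 0.073 without mice 1 and 5 and 0.052 without vehicle-treated mouse 3. The log2 fold change of Nr1d1 was 1.38 with all mice and 1.43 without mice 1 and 5. Cry1, which represses the clock activators, fell 2.23-fold, whereas Arntl, the core activator, ranged from 1.87 to 10.4 CPM among vehicle-treated mice alone and did not pass the test. The hour at which kidneys were taken is not given in the sources used here. Of 21 immediate early genes 4 rose, and 1 without mice 1 and 5. Fosl2 rose 2.16-fold from 28.5 ± 3.61 to 61.5 ± 17.6 CPM without overlap of the groups, and Fos did not pass the test. Of 23 genes of the ATF4 and unfolded protein response 2 rose, Trib3 and Atf5, and none without mice 1 and 5 (edgeR adjusted p = 0.23 and 0.095). The liver and thyroid hormone carrier Ttr fell 3.23-fold from 153 ± 26.8 to 47.4 ± 13.6 CPM.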
